A study of Mus musculus with 43 samples.

Results

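Microglia are the resident macrophages of the brain, and the set of genes described here is the one that distinguished them from the 3 macroglial cell types in control mice. The 22 control libraries, of 43 libraries in the whole series, were all used: 6 of microglia, 6 of astrocytes, 6 of oligodendrocyte precursor cells (OPCs) and 4 of oligodendrocytes, chosen by their labels alone. Each library held the RNA of 1 cell type from the cortical grey matter of 1 mouse, 3 months old and of either sex, on a C57BL/6J background. The control mice numbered 1, 2, 3 and 5 were Rag2+/- and those numbered 4 and 6 were Rag2+/+, and all came from a colony in which the Rag2-/- allele was bred. Both genotypes have lymphocytes. The 4 cell types came in turn from the same cell suspension of each mouse, on plates that bound CD45 (microglia), PDGFRα (OPCs), GalC (oligodendrocytes) and HepaCAM (astrocytes), except that no oligodendrocyte library came from mice 2 and 4. Macrophages of the periphery carry CD45 too and may be among the cells of that plate, although each mouse was perfused to lower their number. The labels give no activating treatment to any mouse.

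Microglia descend from macrophage precursors of the yolk sac that enter the brain early, whereas astrocytes, OPCs and oligodendrocytes are born from the neural tube. They depend on the receptor Csf1r and on the transcription factor Spi1 (PU.1), sense damage and infection through Toll-like, purinergic and Fc receptors, clear debris by phagocytosis and present antigen. Genes such as Cx3cr1, P2ry12, Tmem119 and Aif1 are commonly used to identify them.

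The control libraries held 6499417 to 13709286 counts on genes. Levels are given as normalized CPM, the counts of a gene relative to the total of its library after scaling by edgeR's TMM factors, and differences as log2 fold changes of microglia against the unweighted mean of the 3 macroglial types, with their standard error (SE). Calls are at an adjusted p under 0.05 (edgeR's quasi-likelihood test, two-sided, Benjamini-Hochberg over 19368 genes). All libraries of 1 cell type shared a sequencing lane, so that the lane cannot be told apart from the cell type. Mitochondrially encoded genes took 6.75% to 11.7% of the counts in microglia and 22.4% to 58.3% in the macroglial libraries. One microglia library, that of mouse 1, stood apart from the other 5, with a TMM factor of 0.9136 against 1.114 to 1.184 and the fewest counts, and results that rest on it are given without it as well.

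The 4 markers matched the label of the microglia libraries. Cx3cr1, the receptor for the chemokine fractalkine (chr9:119877749-119898945, minus strand, GRCm39), had 591 to 726 CPM in the 6 microglia libraries, with a median of 685. Its range was 4.19 to 14 in astrocytes and 12.6 to 64.0 in OPCs, and the 4 oligodendrocyte libraries had 39.8, 66.7, 23.7 and 24.7. Every microglia library therefore lay far above every macroglial library, and the log2 fold change was 5.08 (SE 0.27, adjusted p = 7.28e-14). P2ry12, an ADP receptor that steers microglial processes towards injury (chr3:59123682-59170429, minus strand), had 725 to 1150 CPM in microglia with a median of 864, and 13.4 to 148 in the macroglial libraries, with a log2 fold change of 4.36 (SE 0.26, adjusted p = 7.71e-13). Tmem119, a membrane protein (chr5:113931781-113938577, minus strand), had a median of 486 CPM, and its log2 fold change was 5.41 (SE 0.30). The library of mouse 1 was the highest at 880 CPM against 428 to 518 in the other 5. Aif1, the actin-bundling protein IBA1 (chr17:35387384-35395053, minus strand), had a median of 199 CPM and a log2 fold change of 5.05 (SE 0.33), and here too the library of mouse 1 was the highest at 336 CPM against 177 to 207. None of the 4 overlapped between microglia and any macroglial library, and 15.1% of all genes tested stood above every macroglial library.

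These 4 markers were not absent from the macroglial libraries. Their summed level was 2055 to 2957 CPM in microglia, and relative to the microglia median it was 1.04% to 3.05% in astrocytes, 2.16% to 9% in OPCs and 4.29% to 12.7% in oligodendrocytes. In each of the 3 macroglial types the library of mouse 3 held the highest sum, with 67.8 CPM against 23 to 45.1 in the other astrocyte libraries, 200 against 48.1 to 114 in the other OPC libraries, and 282 against 95.4 to 144 in the other oligodendrocyte libraries. The part of this signal in the size of the differences was not tested. In bulk RNA of this kind a few microglia among other cells and a low level in every cell cannot be told apart.

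**Figure D1:**
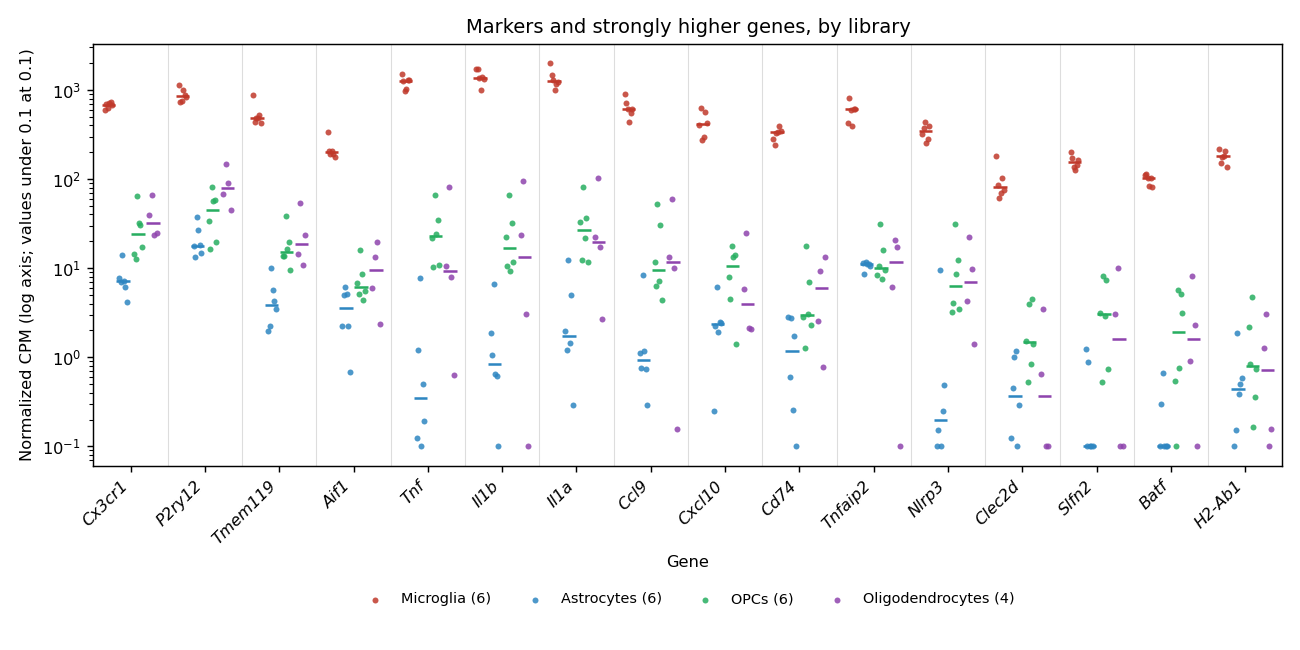
Normalized CPM on a log axis of the 4 markers and of the 12 protein-coding genes with the highest microglial level per kilobase among those strongly set apart, 1 point a library and a bar at the median of each cell type (6 microglia, 6 astrocyte, 6 OPC and 4 oligodendrocyte libraries; values under 0.1 are drawn at 0.1). In all 16 genes every microglia library lies above every macroglial library, as was true of 15.1% of all genes tested. The 12 were chosen by the same difference in the same libraries, so this share is no measure for them.

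Of the 19368 genes tested, 6452 (33.3%) were higher and 6517 (33.6%) lower in microglia than in the macroglial mean, while the median log2 fold change of all genes was -0.02. A mean over 3 types can be carried by 1 of them, so a gene is called set apart here when it also differed from each type on its own, in the same direction and by at least 2-fold. By this measure 2810 genes (14.5%), 2113 of them protein coding, were set apart higher and 3271 (16.9%), 2741 of them protein coding, were set apart lower. The genes set apart higher held 32.3% to 42.4% of all counts in the microglia libraries, but 4.34% to 5.02% in astrocytes, 5.89% to 8.76% in OPCs and 2.34% to 5.52% in oligodendrocytes. Strongly set apart, by at least 32-fold against each type, were 154 genes higher (0.795%) and 197 genes lower (1.02%). For 16 of the 154 no macroglial library had a single count, and for 78 of the 197 no microglia library had one, so that no fold is given for these. Without the microglia library of mouse 1, 2686 genes were set apart higher and 3213 lower, 142 and 206 of them strongly. With the 3 macroglial libraries of mouse 3 left out together, an alternative added after the data were seen, 2718 were set apart higher and 3172 lower, and 325 and 185 strongly. With the mouse as a replicate block in the fit, 310 genes were strongly set apart higher. The number strongly set apart lower was 342 in heterozygous mice alone and 122 with limma voom.

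**Figure D2:**
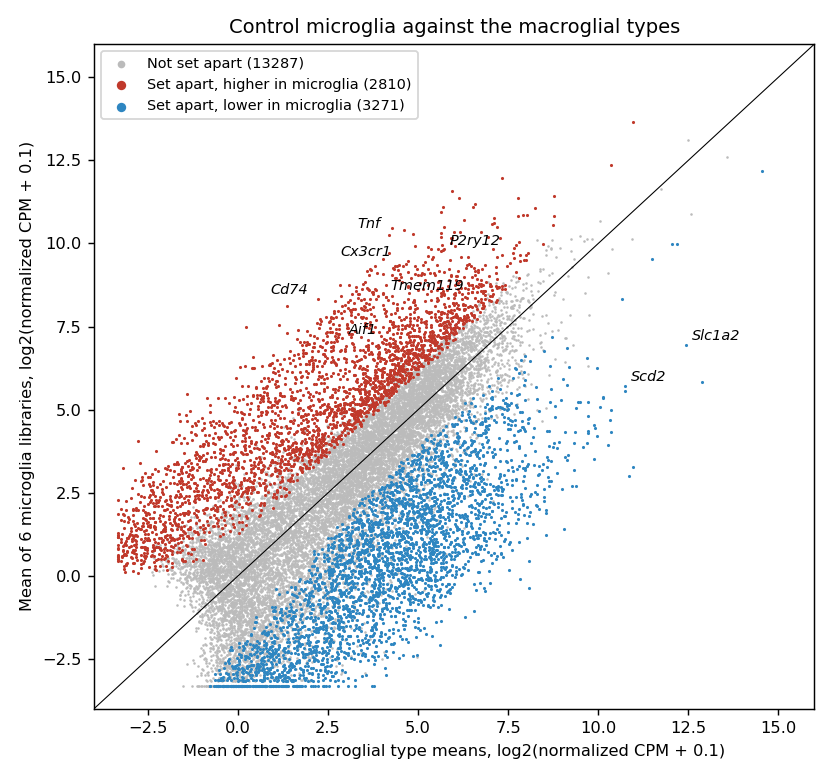
Mean normalized CPM of each of the 19368 genes tested in the 6 microglia libraries against the mean of the 3 macroglial type means, both as log2(CPM + 0.1), with the line of equal levels. The 2810 genes set apart higher and the 3271 set apart lower are coloured, and the row of points at the bottom edge holds genes with no count in microglia.

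The median log2 fold change of the genes set apart higher was 3.08 against astrocytes, 2.75 against OPCs and 3.00 against oligodendrocytes, and the difference was largest against astrocytes for 1459 of the 2810 genes, against oligodendrocytes for 945 and against OPCs for 406. For the 4 markers the values were 5.40 to 6.88 against astrocytes, 4.33 to 4.85 against OPCs and 3.36 to 4.50 against oligodendrocytes. These differences between the types were not tested. Of the 154 strongly higher genes, 106 had a count in an astrocyte library and 45 of them were highest in that of mouse 3. The same held for 76 of 128 in OPCs and for 67 of 99 in oligodendrocytes. Against astrocytes alone 5768 genes (29.8%) were higher and 6053 (31.3%) lower in microglia, against OPCs 5505 (28.4%) and 6284 (32.4%), and against oligodendrocytes 5608 (29%) and 5769 (29.8%). Genes could also lie between the types: 374 genes were higher in microglia than in 1 macroglial type and lower than in another, of which 183 were lower than in astrocytes, 110 lower than in OPCs and 140 lower than in oligodendrocytes. Tlr3 and Apoe, described below, were among them.

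The 12 protein-coding genes with the highest level per kilobase of exons among the 154 were mostly cytokines and antigen presentation genes, and since their levels chose them, no test is given over the 12. Tnf, the gene of tumour necrosis factor (chr17:35418357-35420983, minus strand), was the highest, with a mean of 748 CPM per kilobase in microglia. It had 971 to 1514 CPM in the microglia libraries with a median of 1269, 0 to 7.76 in astrocytes and 10.2 to 66.9 in OPCs, while the oligodendrocyte libraries had 10.7, 81.9, 7.90 and 0.629. The oligodendrocyte library with 81.9 was that of mouse 3. The log2 fold change was 6.95 (SE 0.63, adjusted p = 9.11e-10). Il1b, which encodes the cytokine interleukin-1β, had 1003 to 1730 CPM with a median of 1372 in microglia and at most 94.2 in any macroglial library, with a log2 fold change of 7.12 (SE 0.66). Il1a, its neighbour on chromosome 2 (chr2:129140291-129152098, minus strand), had 992 to 1997 CPM with a median of 1268 and a log2 fold change of 6.41 (SE 0.54).

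Nlrp3, the sensor of the inflammasome that matures interleukin-1β, had a median of 346 CPM in microglia and a log2 fold change of 5.98 (SE 0.59). Among chemokines, Ccl9 had a median of 612 CPM and a log2 fold change of 6.13 (SE 0.60), and the interferon-inducible Cxcl10 had a median of 412 CPM, with 271 to 624 in microglia and at most 25 elsewhere, and a log2 fold change of 6.13 (SE 0.46). Cd74, the invariant chain that guides MHC class II molecules, had 243 to 394 CPM with a median of 334 in microglia and at most 17.5 in any macroglial library, a log2 fold change of 6.50 (SE 0.47). H2-Ab1, the β chain of an MHC class II molecule, had the largest difference of the 12 in this fit: its microglia libraries held 137 to 216 CPM with a median of 181, no macroglial library exceeded 4.69, and the log2 fold change was 7.55 (SE 0.46, adjusted p = 7.37e-13). Without the macroglial libraries of mouse 3 H2-Ab1 had 8.28 and Tnf 8.37. The others were Tnfaip2, induced by tumour necrosis factor (median 604 CPM, log2 fold change 5.59), Slfn2 of the Schlafen family (154 CPM, 6.58), Batf, a transcription factor of the AP-1 family (103 CPM, 6.50), and Clec2d, a C-type lectin (80.5 CPM, 6.49). Clec2d had 182 CPM in the library of mouse 1 and 61.3 to 102 in the other 5. H2-Ab1 at rank 12 had 69.5 CPM per kilobase, and Icam1 at rank 13, which was not taken, had 61.8.

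The transcription factors of the myeloid lineage were almost all higher in microglia. Of 18 tested, 16 were higher and 15 set apart, against 33.3% and 14.5% of all genes, and 2 were not called. The median log2 fold change was 4.99 over the 18 against -0.02 over all genes. Spi1, which encodes PU.1, had 456 to 563 CPM with a median of 535 in microglia and 0 to 49.8 in the macroglial libraries, with a log2 fold change of 5.86 (SE 0.46). Lyl1, a basic helix-loop-helix factor of blood progenitors, was the only member strongly set apart (median 41.9 CPM, log2 fold change 6.48). Irf5 and Irf8, interferon regulatory factors, had log2 fold changes of 5.96 and 5.41. Runx1 had 5.73, although its level in the library of mouse 1 was 207 CPM against 339 to 387 in the other 5. Mef2c was higher in the mean contrast (log2 fold change 2.52) but not set apart, since the 4 oligodendrocyte libraries reached 135 to 425 CPM against 376 to 540 in microglia.

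Promoters of these genes were searched for the letters of 5 motifs, and the shares are a description with no test. A promoter was taken as the window from 250 bases before the start to 50 bases from the start onwards, on the first base of the canonical transcript, read from GRCm39, and 14124 protein-coding genes were searched on both strands. The letters GAGGAAGT were found in 2.87% of all these promoters, 6.39% of the 2113 of genes set apart higher, 13.6% of the 103 of genes strongly higher and 1.79% of the 2741 of genes set apart lower. An NF-κB motif, GGGA and TTTCC with 1 base of any kind between them, was found in 0.496%, 1.33%, 7.77% and 0.328% of the same groups, and the AP-1 letters TGANTCA in 5.35%, 7.34%, 13.6% and 5.14%. For a composite of PU.1 and IRF sites, GGAA and GAAA with 2 bases between them, the shares were 2.94%, 4.12%, 4.85% and 2.48%. The NFI palindrome, TTGGC and GCCAA with 5 bases between them, was in 7 of the 14124. GAGGAAGT and the composite share the core GGAA, so that both can match the same letters, and a match is no evidence of binding. The stretches below are shown because they hold a match upstream of genes whose levels are given here, with the matched letters in capitals, each 100 bases long on the strand of the gene. The first ends on the first transcribed base, which is the last letter of its match.

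Spi1, chr2:90926342-90926441, plus strand: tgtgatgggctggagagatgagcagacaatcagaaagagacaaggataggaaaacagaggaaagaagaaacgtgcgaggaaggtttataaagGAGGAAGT
C1qc, chr4:136620377-136620476, minus strand: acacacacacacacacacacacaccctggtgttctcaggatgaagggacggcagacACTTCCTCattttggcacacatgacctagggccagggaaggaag
Fcer1g, chr1:171062220-171062319, minus strand: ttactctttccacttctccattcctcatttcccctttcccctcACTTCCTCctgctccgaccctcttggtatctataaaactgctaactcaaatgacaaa
Adora3, chr3:105811627-105811726, plus strand: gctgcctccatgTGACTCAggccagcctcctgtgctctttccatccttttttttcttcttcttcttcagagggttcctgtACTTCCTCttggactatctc
Cxcl10, chr5:92496749-92496848, minus strand: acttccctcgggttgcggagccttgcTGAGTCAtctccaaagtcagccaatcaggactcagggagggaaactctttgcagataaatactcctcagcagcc
Batf, chr12:85733193-85733292, plus strand: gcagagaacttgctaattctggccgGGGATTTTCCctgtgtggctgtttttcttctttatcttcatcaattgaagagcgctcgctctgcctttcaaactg
Slfn2, chr11:82955509-82955608, plus strand: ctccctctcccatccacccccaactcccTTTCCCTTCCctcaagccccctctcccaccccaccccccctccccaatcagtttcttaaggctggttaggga

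The stretches of Spi1, C1qc, Fcer1g and Adora3 hold the PU.1 letters, those of Adora3 and Cxcl10 the AP-1 letters, that of Batf the NF-κB letters and that of Slfn2 the composite. In C1qc, Fcer1g, Adora3 and Slfn2 the PU.1 or composite letters are on the strand opposite to the gene.

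Genes of the list for homeostatic microglia were all higher, and whether the cells were at rest was not tested. All 17 tested were higher and 16 were set apart, against 33.3% and 14.5% of all genes, with a median log2 fold change of 4.64. Csf1r, the receptor on which microglia depend, had 3782 to 4385 CPM in microglia with a median of 4007 and at most 487 in any macroglial library, a log2 fold change of 4.93 (SE 0.32). Siglech had 4.64, Selplg 5.25 and Gpr84, a receptor for medium-chain fatty acids, 6.11. Cst3, the protease inhibitor cystatin C, was the member with the most counts in microglia, a median of 12723 CPM, but it was also made by astrocytes, whose median was 3416 CPM, and its log2 fold change was 2.86. Sall1, a zinc finger factor of microglial identity, had a median of 196 CPM in microglia and 27.6 to 69.3 in the macroglial libraries, with a log2 fold change of 1.93 (SE 0.16). Its level in the microglia library of mouse 1 was 85.7 CPM, close to the macroglial libraries, and 191 to 229 in the others. Adgrg1, an adhesion receptor shared by glia, was the exception that was not set apart, with 273 to 339 CPM in microglia and 206 to 267 in astrocytes.

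Of the 15 genes tested of growth factor receptors and their ligands, 10 were higher in microglia and 4 lower, against 33.3% and 33.6% of all genes, and 1, the receptor Flt3, was not called (log2 fold change 1.23, SE 0.60, adjusted p = 0.0708). Flt3 was called in 5 of the 34 alternatives, among them the fits without the OPC library of mouse 4, the astrocyte library of mouse 2 or the oligodendrocyte library of mouse 5 (adjusted p from 0.0334 to 0.0443). Csf2rb, the shared β chain of the receptors for GM-CSF, interleukin-3 and interleukin-5, had 52.6 to 103 CPM in microglia and at most 3.23 elsewhere (log2 fold change 6.76, SE 0.40), and Csf3r, the G-CSF receptor, had a log2 fold change of 5.19. Csf1, a ligand of Csf1r, was higher in microglia as well, with a median of 313 CPM and a log2 fold change of 2.84. Il34, the other ligand of Csf1r, was lower (log2 fold change -2.70, SE 0.80), at levels of at most 6.53 CPM in any library. Its value was -3.88 without the microglia library of mouse 1. The call on Il34 was lost in the mice with all 4 cell types (-2.47, adjusted p = 0.0602).

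The TGF-β genes also divided. Tgfb1 had a median of 312 CPM in microglia and a log2 fold change of 5.15, whereas Tgfb2 was lower by a log2 fold change of -5.23 and Tgfb3 of -3.64. The receptor genes Tgfbr1 and Tgfbr2 had log2 fold changes of 4.47 and 4.72. Latent TGF-β is held on microglia by the protein of Nrros, which was higher (log2 fold change 4.69), and is activated by integrins with the β8 chain. Itgb8, which encodes that chain, was strongly set apart in the other direction: it had 1.35 to 4.09 CPM in microglia, 144 to 159 in astrocytes, 172 to 239 in OPCs and 59.2 to 127 in oligodendrocytes, with a log2 fold change of -5.87 (SE 0.25, adjusted p = 2.40e-15).

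Most complement genes tested were higher in microglia. Of 18 tested, 14 were higher and 11 of these set apart, against 33.3% and 14.5% of all genes, and 2 were lower, against 33.6%. The other 2, C4b and Serping1, were not called (log2 fold changes 0.41 and 0.05). The median of the 18 was 4.48. C1qa, C1qb and C1qc, the 3 chains of C1q that tag synapses and debris, had microglial medians of 774, 2034 and 1694 CPM and log2 fold changes of 4.65, 4.82 and 4.78. The receptors C3ar1 and C5ar1 differed more, by 6.07 and 5.50, and C3ar1 had 1986 to 2486 CPM in microglia. Itgam and Itgb2, the chains of complement receptor 3, had 4.62 and 5.43. C3 was higher in the mean contrast (4.33, SE 0.77) but overlapped, since 1 oligodendrocyte library reached 21.2 CPM against 10.8 to 32.1 in microglia. The lower members were Cd59a, which blocks the membrane attack complex (log2 fold change -3.78, at most 6.61 CPM in any library), and Cd46, a cofactor of complement cleavage (-0.76, SE 0.31, adjusted p = 0.0358). Cd55, which like Cd46 acts at the cell surface, was higher (1.92, SE 0.81, adjusted p = 0.041), a call lost in 10 of the 34 alternatives. Among these were the fits without the microglia library of mouse 2, 4, 5 or 6, the astrocyte library of mouse 2 or 5, or the oligodendrocyte library of mouse 1 or 5 (adjusted p from 0.0511 to 0.0948). Without the astrocyte library of mouse 1 the log2 fold change of Cd55 was 3.56. C4b was called without the microglia library of mouse 3 (0.58, adjusted p = 0.0455). The call on Cd46 was lost in 11 of the 34 alternatives, and the adjusted p was 0.0628 without the microglia library of mouse 1.

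The genes of Fc receptors and of ITAM signalling, by which phosphorylated adaptors recruit Syk, were all higher. All 17 were called, 16 were set apart and none overlapped, as was true of 15.1% of all genes tested, and the median was 5.08 with a narrow range of 4.38 to 5.84. Tyrobp, the adaptor DAP12, had 910 to 1443 CPM in microglia with a median of 1144 and a log2 fold change of 4.89. Trem2, its partner receptor for lipids, had a median of 262 CPM and 4.80, Fcer1g 4.38, Fcgr1 5.55 and Syk 5.71. Fcgr3 had 5.08, and the library of mouse 1 was again the highest with 386 CPM against 221 to 246. Btk, a kinase of the same pathway, was the member not set apart: 1 oligodendrocyte library had 15.9 CPM against 22.6 to 31.9 in microglia.

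Of 22 genes of innate pattern recognition, 21 were set apart higher, against 14.5% of all genes, with a median of 4.78. The Toll-like receptor genes Tlr2, Tlr1, Tlr9 and Tlr7 had log2 fold changes of 6.13, 6.07, 6.00 and 5.08. Tlr2, a receptor for bacterial lipoproteins, had a median of 587 CPM in microglia and at most 34.0 in the macroglia. Tlr4, the receptor for lipopolysaccharide, was lower in level, with a median of 43.2 CPM, and had a log2 fold change of 3.46, whereas its coreceptor Cd14 had 612 CPM and 5.60. The adaptor Myd88 had 3.82 and the kinase Irak4 2.21. Tlr3, the receptor for double-stranded RNA, was the exception: astrocytes had 164 to 291 CPM, microglia 24.5 to 35.4, OPCs 11.4 to 27.6 and oligodendrocytes 5.78 to 12.2. Microglia were therefore below astrocytes (log2 fold change -3.02) and above oligodendrocytes (1.67), and the mean contrast was not called (-0.23, adjusted p = 0.284), except with equal weight per library (-0.47) and in limma voom (-0.40).

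Most genes tested of chemokines and their receptors were higher in microglia. Of 16 genes of chemokines and their receptors, 13 were set apart higher and 3 of them strongly, against 14.5% and 0.795% of all genes. The median was 5.39. Ccl3 and Ccl4, which attract monocytes and T cells, had medians of 2106 and 785 CPM in microglia and log2 fold changes of 6.10 and 6.23. Cxcl16 had 5.69 and Ccl2, another attractant of monocytes, 5.16. Cxcl14 went the other way, with 97.3 to 151 CPM in astrocytes and 0.169 to 3.02 in microglia (log2 fold change -4.54). Cx3cl1, the ligand of the marker Cx3cr1, was lower in the mean contrast (-1.98, SE 0.21), with 42.2 to 76.6 CPM in OPCs, 32.9 to 96.6 in oligodendrocytes, 7.99 to 12.6 in astrocytes and 6.81 to 10.9 in microglia. The microglia and astrocyte ranges of Cx3cl1 overlapped.

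Of 15 purinergic genes tested, 8 were higher and 6 lower, against 33.3% and 33.6% of all genes. All 8 were set apart, as were 14.5% of all genes, and the median was 2.03. P2ry6, a UDP receptor tied to phagocytosis, had a median of 210 CPM in microglia and a log2 fold change of 5.50, and P2ry13, an ADP receptor, 350 CPM and 4.90. The ion channel gene P2rx7 differed less (2.05), with 83.6 to 106 CPM in OPCs against 155 to 233 in microglia. Enzymes that break down extracellular nucleotides showed opposite signs: Entpd1 (CD39) had 435 to 607 CPM in microglia and at most 90.6 elsewhere (4.32), while Entpd2 had 45.7 to 68.7 CPM in astrocytes and at most 0.575 in microglia (-5.40) and Nt5e (CD73) was also lower (-3.15). Among the adenosine receptors Adora3 was higher (5.01, SE 0.70), at 6.53 to 12.1 CPM, and Adora1 lower (-4.59, SE 0.34). P2ry1 was lower too (-4.19, SE 0.92), with 6.59 to 17.4 CPM in OPCs and at most 0.459 in microglia, but its 0 to 2.43 CPM in astrocytes and 0 to 5.27 in oligodendrocytes overlapped microglia. Its value was -3.36 without the oligodendrocyte library of mouse 1, -5.46 without the microglia library of mouse 6 and -7.29 in heterozygous mice alone.

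All 22 lysosomal genes were higher in microglia and 18 were set apart, against 33.3% and 14.5% of all genes, with a median of 3.02. Ctss, the cathepsin that trims the invariant chain, had 1962 to 2621 CPM in microglia with a median of 2335 and a log2 fold change of 4.88. Ctsh had 4.99, with 366 CPM in the library of mouse 1 against 205 to 247 in the other 5, and Cd68, a lysosomal glycoprotein of macrophages, 4.74. The cathepsins of most tissues differed less, Ctsd by 3.32 and Ctsb by 2.84, and Lamp1, present in the lysosomes of all cells, by 0.98 (SE 0.12).

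All 17 antigen presentation genes were higher and 16 were set apart, against 33.3% and 14.5% of all genes, with a median of 4.84. Strongly set apart were 4 of the 17, against 0.795% of all genes: H2-Aa, H2-Ab1, H2-Eb1 and Cd74, all of the class II pathway. The part of other macrophages on the CD45 plate in the levels of these 4 was not tested. H2-Aa, the α chain that pairs with the product of H2-Ab1, had 150 to 207 CPM in microglia and at most 9.91 elsewhere (log2 fold change 6.83), and H2-Eb1 had 6.42. Of class I genes, B2m had a median of 1690 CPM and 3.77, H2-K1 903 CPM and 4.30, and H2-D1 774 CPM and 4.40. Cd86, a costimulator of T cells, had 5.78, and Tap2, a subunit of the peptide transporter, 2.52 at 3.99 to 8.03 CPM, where its range overlapped that of OPCs.

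Genes of lipid handling did not share 1 direction. Of 14 tested, 8 were higher and 3 lower, against 33.3% and 33.6% of all genes, 3 were not called, and the median was 0.88. Lpl, lipoprotein lipase, had 83.8 to 130 CPM in microglia and at most 9.77 elsewhere (log2 fold change 5.30), and Cd36, a scavenger receptor for oxidized lipids, had 4.50. Apoe, the lipoprotein of brain cholesterol transport, was not called (-0.14, SE 0.17, adjusted p = 0.492). Its 550 to 1405 CPM in microglia lay under the 2391 to 3185 of astrocytes and overlapped the 550 to 969 of OPCs. The fatty acid binding protein genes Fabp7 and Fabp5 were lower, with log2 fold changes of -5.06 and -2.31.

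**Figure D3:**
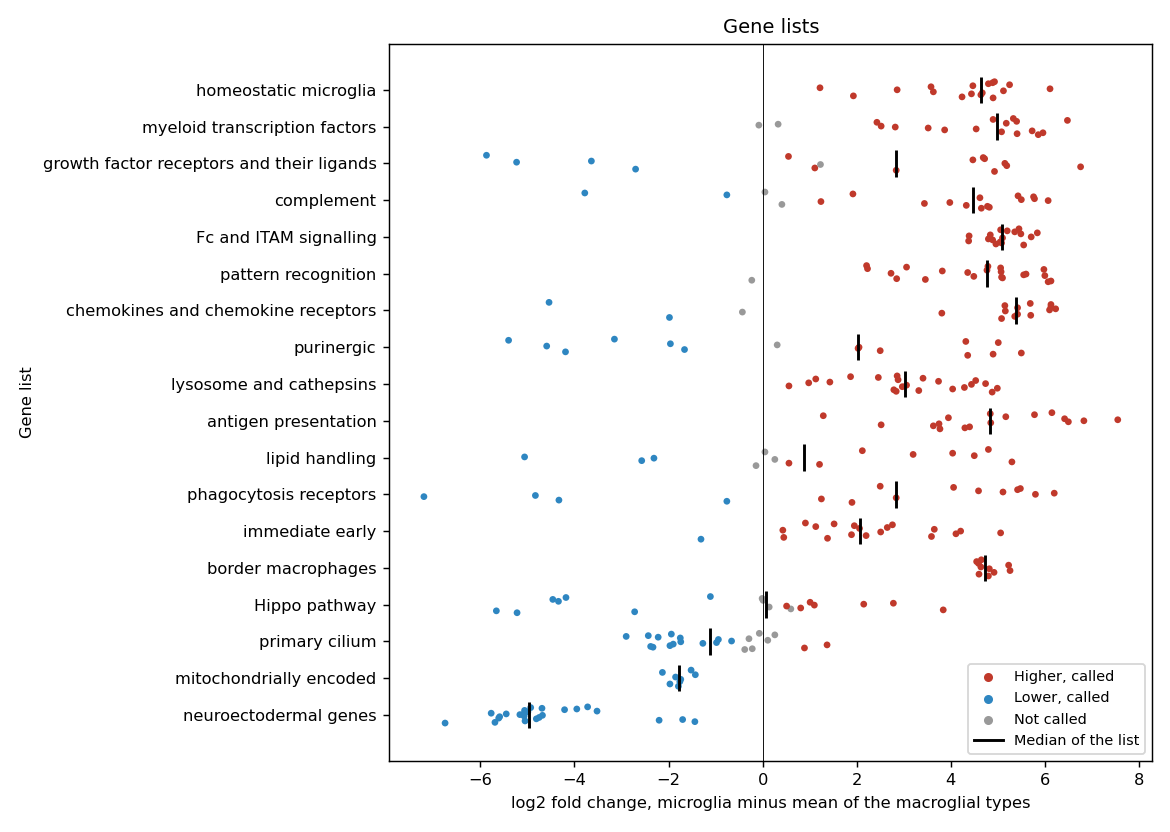
Log2 fold change of microglia against the mean of the macroglial types for each tested gene of 18 lists, 1 point a gene coloured by its call, with a bar at the median of the list. The points of Fc and ITAM signalling lie between 4.38 and 5.84, while lipid handling, purinergic, phagocytosis and Hippo genes fall on both sides of 0.

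Of 15 receptors for phagocytosis and related genes tested, 11 were higher and 4 lower, against 33.3% and 33.6% of all genes (median 2.84). Cd300a, a receptor for phospholipids, had a median of 287 CPM in microglia and a log2 fold change of 5.80. Msr1, a scavenger receptor, had 5.48 at 11.8 to 43.4 CPM, and Timd4, which binds phosphatidylserine, 5.11 at 1.97 to 10.5 CPM. Megf10, an engulfment receptor of astrocytes, had the largest difference of the list: 182 to 235 CPM in astrocytes, 59.8 to 88.6 in OPCs, 33.7 to 146 in oligodendrocytes and 0.157 to 1.94 in microglia, a log2 fold change of -7.20 (SE 0.43, adjusted p = 6.70e-13). Gulp1, an engulfment adaptor, was lower by -4.83, and by -6.20 without the microglia library of mouse 1. The TAM receptor genes were each different. Mertk was as high in astrocytes (314 to 617 CPM) as in microglia (256 to 442) and higher in the mean contrast (1.90), Axl was highest in astrocytes (121 to 154 CPM, against 19.4 to 36.8 in microglia) and lower in the mean contrast (-0.76, SE 0.31, adjusted p = 0.0364), and Tyro3 was lower than in each type (-4.33). The call on Axl was lost in 7 of the 34 alternatives, with an adjusted p of 0.0784 without the microglia library of mouse 1. Gas6, a ligand of the 3 receptors, was higher by 1.25.

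Among the genes lower in microglia, the 12 with the highest level in the lowest macroglial type, among protein-coding genes at least 8-fold lower against each type (1015 genes), were Tubb4a, Slc1a2, Scd2, Dbi, Cpe, Clip3, Omg, Gpm6b, Ndrg2, Aldoc, Ptn and Sparcl1. Slc1a2, the glutamate transporter GLT-1, had 12397 to 15168 CPM in astrocytes with a median of 12654, 1575 to 2020 in OPCs and 1054, 1255, 1626 and 2813 in the oligodendrocyte libraries, against 95.8 to 163 with a median of 110 in microglia (log2 fold change -4.82, SE 0.20). Tubb4a, a tubulin of myelinating cells, had 2166 to 3244 CPM in oligodendrocytes and 8.66 to 24.5 in microglia (-5.82, SE 0.34). Scd2, a fatty acid desaturase, had 794 to 3045 CPM in the macroglia and 46.3 to 62.9 in microglia (-4.93, SE 0.19), and Gpm6b, a membrane proteolipid, 330 to 1295 against 10.0 to 26.5 (-5.61, SE 0.21). Dbi, the acyl-CoA binding protein, had the smallest difference of the 12, with 141 to 306 CPM in the macroglia and 10.6 to 35.0 in microglia (-3.37, SE 0.19). Of the others, Clip3 had -5.25, Cpe (carboxypeptidase E) -4.88, Ptn (the growth factor pleiotrophin) -4.75, Aldoc (aldolase C) -4.72, Omg -4.65, Sparcl1 (hevin) -4.57 and Ndrg2 -4.21. None of the 12 had a microglia library that reached a macroglial library. Since they were chosen by the same difference, the share of 9.58% of all genes tested that stood below every macroglial library is no measure for them. Sparcl1 at rank 12 had 51.6 CPM per kilobase in the lowest type, and Gpm6a at rank 13 had 50.2. Panels of astrocyte and of oligodendrocyte genes also had counts in the libraries of the other macroglial types, as given below. The part of this signal in the level of the lowest type, and in the genes set apart lower, was not tested.

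**Figure D4:**
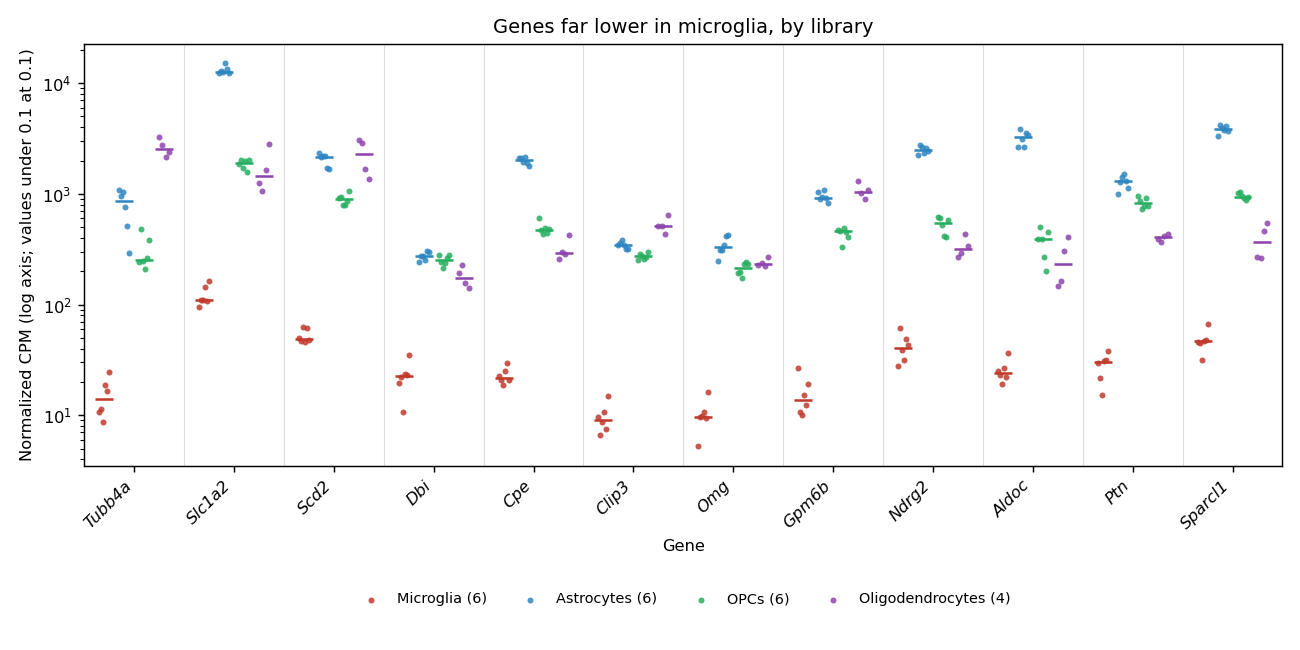
Normalized CPM on a log axis of the 12 genes named as lower in microglia, 1 point a library and a bar at the median of each cell type (6 microglia, 6 astrocyte, 6 OPC and 4 oligodendrocyte libraries). The microglia libraries lie between 5.23 and 163 CPM, under every macroglial library of the same gene.

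Of 24 genes that neural progenitors and their descendants share, all were lower in microglia and 23 set apart, against 33.6% and 16.9% of all genes. The median was -4.96. Sox2, a transcription factor of neural progenitors, had 0.0787 to 0.432 CPM in microglia, 37.9 to 65.3 in astrocytes, 26.1 to 34.9 in OPCs and 9.06 to 18.9 in oligodendrocytes (-6.75, SE 0.30, adjusted p = 5.12e-15). Ptprz1, a receptor of pleiotrophin, had -5.59, Ncam1 -5.07 and Nfib -5.05. Nfia, the close relative of Nfib, differed much less (-1.44, SE 0.13), since it had 65.8 to 80.2 CPM in microglia. Ckb, brain creatine kinase, was the member not set apart (-1.70), with 192 to 266 CPM in microglia and 391 to 525 in oligodendrocytes.

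In the Hippo pathway, a kinase cascade that keeps the coactivators Yap1 and Wwtr1 (TAZ) out of the nucleus, 7 of 18 genes tested were higher in microglia and 7 lower, against 33.3% and 33.6% of all genes, with a median of 0.07. Tead1, the DNA-binding partner of Yap1, had 0 to 1.30 CPM in microglia and 86.3 to 111 in astrocytes (-5.66, SE 0.38), Yap1 had 0 to 0.945 and 26.6 to 33.3 (-5.22), and Wwtr1 had -2.72. Tead2, another such partner, was higher (3.84, SE 0.85) at a microglial median of 1.70 CPM, and Tead3 was not called (0.60) except without the oligodendrocyte library of mouse 6 (2.20, adjusted p = 0.00485). Amotl2 (-4.46) and Ccn1 (-4.18), which are targets of the coactivators, were lower as well. Among the kinases and their regulators, Mob1a had 263 to 380 CPM in microglia and at most 93.0 elsewhere (2.78), and Sav1, Stk4 and Lats1 had 2.15, 1.10 and 0.81, whereas Lats2 (0.14) and Nf2 (-0.01) were not called.

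Of 22 genes of the primary cilium tested, 14 were lower and 9 of them set apart, against 33.6% and 16.9% of all genes, while 2 were higher and 6 not called, with a median of -1.12. Kif3a, a motor subunit that carries cargo into the cilium, had 8.64 to 22.3 CPM in microglia and 40.2 to 122 in the macroglia (-2.43, SE 0.20), Ift57 had -2.38 and Dync2li1 -2.90 at levels of at most 10.8 CPM. Arl13b was the member set apart higher (1.37), with 41.1 to 87.7 CPM in microglia, and Ift140 was higher by 0.89. Of the 13 protein-coding genes of the mitochondrial genome 8 passed the filter and all 8 were lower, against 33.6% of all genes. The median was -1.78. mt-Co1, a subunit of cytochrome c oxidase, had 3415 to 5239 CPM in microglia, 7764 to 15144 in OPCs, 14489 to 19186 in astrocytes and 31841 to 56187 in oligodendrocytes (-2.13), and mt-Cytb had -1.52.

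Many proteins of signalling and of the actin skeleton exist as a form of blood cells and a form of most other tissues, encoded by paralogous genes, and 21 such pairs were compared. The pairs were chosen with earlier results of these data known, so the counts and shares below are a description with no test. All 21 genes of the blood-cell form were set apart higher and none overlapped, as was true of 14.5% and 15.1% of all genes, with log2 fold changes of 3.85 to 5.75 and a median of 5.06. Of their partners 9 were higher and 10 lower, against 33.3% and 33.6% of all genes, and 2 were not called, with a median of -0.41. The widest pair was Fermt3 and Fermt2, kindlins that activate integrins. Fermt3 had 112 to 140 CPM in microglia with a median of 113, 0 to 5.88 in astrocytes, 1.59 to 13.3 in OPCs and 3.21, 9.99, 13.5 and 10.7 in the oligodendrocyte libraries (5.06, SE 0.47). Fermt2 had 3.53 to 5.38 CPM in microglia, 393 to 467 in astrocytes, 141 to 179 in OPCs and 69.4, 141, 180 and 186 in oligodendrocytes (-5.60, SE 0.21). The 2 genes thus differed by 10.66 on the log2 scale, and per kilobase of exons Fermt3 made 94.0% to 96.2% of the pair in the microglia libraries.

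The next were Hcls1 and Cttn, regulators of branched actin (5.14 and -4.32), and Nckap1l and Nckap1, subunits of the WAVE complex (5.00 and -4.34), and then Lyn and Fyn, kinases of the Src family (4.84 and -2.72). Without the microglia library of mouse 1 Cttn had -5.19. Lcp1 and Pls3, actin-bundling plastins, had 4.95 and -2.23. In other pairs both genes were higher. Vav1 and Vav2, exchange factors for small GTPases, had the smallest gap (5.75 and 3.67), and Rac2 and Rac1 had 5.05 and 0.45. Rac1, with 329 to 433 CPM in microglia, kept the larger part, so that Rac2 made 16.8% to 28.7% of this pair. The blood-cell form made over 50% of the pair in every microglia library for 17 of the 21 pairs. It exceeded 50% in at least 1 library for 2 pairs in astrocytes, 7 in OPCs and 8 in oligodendrocytes.

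**Figure D5:**
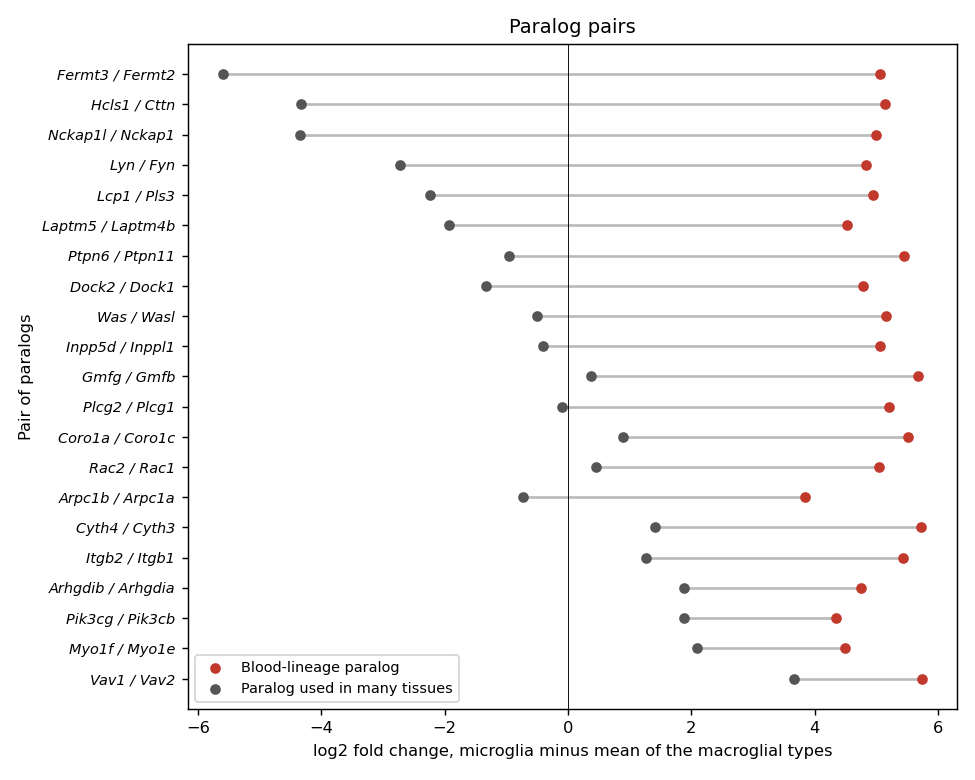
Log2 fold change of microglia against the mean of the macroglial types for the 21 pairs of paralogs, with the blood-cell form in red and the form of many tissues in grey, ordered by the difference between the 2. The red points lie between 3.85 and 5.75, and the grey points between -5.60 and 3.67.

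Immediate early genes, which rise within minutes of stimulation and of tissue dissociation, were also higher in the microglia libraries. Of 19 tested, 18 were higher and 10 of them set apart, against 33.3% and 14.5% of all genes, and the median was 2.06. Their summed level was 7247 to 9817 CPM in microglia, 2412 to 3465 in astrocytes, 2274 to 3370 in OPCs and 1482 to 2791 in oligodendrocytes. Atf3 had 774 to 1173 CPM in microglia and at most 71.2 elsewhere (5.06, SE 0.24), Ier3 had 4.21, Egr2 4.11 and Zfp36, which marks cytokine messages for decay, 3.65. Jun hardly differed (0.45), with 251 to 425 CPM in microglia, 248 to 401 in astrocytes and 342 to 433 in OPCs. Fos went the other way, with 126 to 201 CPM in microglia and 639 to 893 in astrocytes (-1.31, SE 0.13). The part of this response in the levels of Tnf, Il1b, Ccl3 and the other cytokine genes was not tested.

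The CD45 plate selects on the product of Ptprc, and Ptprc had 350 to 570 CPM in microglia with a median of 378 and at most 43.1 elsewhere (log2 fold change 5.55, SE 0.36). The genes behind the other plates were lower in microglia: Hepacam by -5.99, Pdgfra by -4.57 and Ugt8a, which makes GalC, by -6.52. Since these proteins chose the cells, their levels check the labels and are no finding. Markers of other CD45+ cells were present in the microglia libraries as well. All 10 tested genes of border-associated macrophages, which live in the perivascular space and the meninges, were set apart higher, against 14.5% of all genes. Their median was 4.72, with a summed level of 556 to 1152 CPM in microglia against 2.05 to 226 in the macroglia. Mrc1 had 226 to 414 CPM in microglia, Stab1 169 to 220, F13a1 48.8 to 120, Pf4 29.0 to 145, Lyve1 14.2 to 75.8, Cd163 18.9 to 63.5 and Siglec1 2.63 to 13.1. Their part in the genes set apart higher was not tested.

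Markers of blood cells differed in level. Only 4 of 8 neutrophil genes and 1 of 8 NK cell genes passed the filter on counts. Both lists summed to under 1 CPM in every macroglial library, at most 0.864 and 0.996. These genes therefore passed through the microglia libraries, and their calls are not counted. Of the other lists, 6 of 10 genes of T cells, 4 of 8 of B cells, 5 of 7 of monocytes and 4 of 5 of red blood cells passed. Some of these may have passed through the microglia libraries as well, so the calls of these lists are not counted either. The 8 neutrophil genes summed to 11.2 to 32.2 CPM in the microglia libraries, the 10 T cell genes to 7.01 to 24.8 and the 8 NK cell genes to 0.551 to 10.9, and the neutrophil gene Ly6g had no count in any microglia library. The 8 B cell genes summed to 283 to 406 CPM, nearly all of it Ighm with a median of 309, while Cd79a had a median of 0.380 CPM. The 7 monocyte genes summed to 136 to 166 CPM in microglia, against 143 to 236 in astrocytes, 1051 to 1240 in OPCs and 112 to 304 in oligodendrocytes. Most of the sum in microglia was Nr4a1, which is also an immediate early gene, with a median of 136 CPM, and most of that in OPCs was Vcan, the member that was lower in microglia, with a median of 1055 CPM, while in microglia Ccr2 had a median of 4.43 CPM and Ly6c2 1.41. Red blood cell genes varied widely, from 16.3 to 363 CPM in microglia and up to 407 in 1 astrocyte library. All 10 neuronal genes were lower in microglia, against 33.6% of all genes. Their sums were 160 to 315 CPM in microglia, 294 to 553 in astrocytes, 638 to 1270 in OPCs and 1689 to 4494 in oligodendrocytes. The panels of 8 astrocyte, 7 oligodendrocyte and 7 OPC genes were lower throughout, with sums in microglia of 417 to 521, 67.3 to 101 and 7.09 to 51.6 CPM. The astrocyte panel summed to 19764 to 23747 CPM in astrocytes, 2368 to 3354 in OPCs and 1521 to 3937 in oligodendrocytes. The oligodendrocyte panel summed to 26537 to 34416 CPM in oligodendrocytes, 3633 to 4546 in astrocytes and 285 to 1074 in OPCs. The OPC panel had 3070 to 4379 CPM in OPCs, 129 to 401 in astrocytes and 510 to 1117 in oligodendrocytes. Whether other macroglial cells or a low level in every cell gave these sums was not tested.

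The Rag2-/- mice of the series, whose libraries had no part in these results and which lack mature lymphocytes, gave the same comparison in 21 other libraries (6 of microglia, 6 of astrocytes, 5 of OPCs and 4 of oligodendrocytes). In the same fit on these alone, 2776 of 19412 genes (14.3%) were set apart higher and 3191 (16.4%) lower. Of the genes set apart higher, 2289 were shared, which is 81.5% of the control genes and 82.5% of the Rag2-/- genes. Of those set apart lower, 2495 were shared, which is 76.3% and 78.2%. Of the 6081 genes set apart in controls, 1 was called in the opposite direction in the Rag2-/- libraries. Fewer of the strongly set apart genes passed the limit of 32-fold in both. In the Rag2-/- libraries 218 genes (1.12%) were strongly higher and 161 (0.829%) strongly lower. Of the strongly higher genes 66 were shared, which is 42.9% of the control and 30.3% of the Rag2-/- genes, and of the strongly lower genes 56, which is 28.4% and 34.8%. All 24 genes chosen above by their levels, 12 higher and 12 lower, were set apart in the Rag2-/- libraries too. The log2 fold change of Tnf was 7.53 there, that of H2-Ab1 7.06, that of Cx3cr1 5.18, that of Tmem119 5.05 and that of Slc1a2 -4.92. The littermates of each pair were immunopanned and sequenced in the same way, on the same lanes by cell type, so these libraries are other mice but not another method.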

How the data were processed

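The authors isolated each cell type by immunopanning, amplified the cDNA and sequenced paired reads of 50 bases. The deposited values are raw counts of reads per gene, 1 column a library, for 55416 Ensembl genes, which the authors made by alignment to GRCm39 with STAR 2.7.8a and counting with HTSeq, per the labels and the study's methods. Neither states the strand or overlap mode used for counting, so that overlapping and antisense genes may share reads. The 5 closing rows, which hold reads not assigned to 1 gene for any reason, together had 33.5% to 51.9% of the control libraries' reads, and were left out. This share was 48.9% to 51.9% in microglia and 33.5% to 47.8% in the macroglial libraries. Its part in the differences was not tested. GENCODE named 54749 of the IDs and gave the coordinates and promoters on the same build.

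From these counts, edgeR 4.0.16 (R 4.3.3) was fitted to the 22 control libraries with TMM factors, genes kept by filterByExpr (minimum count 10, total 15), cell type and sex as terms, and Benjamini-Hochberg adjustment, with contrasts of microglia against the mean of the 3 macroglial types and against each. Named genes were the markers, the 12 protein-coding genes highest per kilobase of exons in microglia among those strongly set apart, the 12 with the highest level in the lowest macroglial type among those at least 8-fold lower, and members of gene lists. The markers, lists, pairs of paralogs and named list members were chosen with earlier results of these data known. Each library came from 1 mouse, so that replicates are mice. Deviations of libraries from their cell type's mean correlated with a mean r of 0.0425 over 30 pairs of the same mouse, 4 of them over 0.1, and of -0.00837 over 150 pairs of different mice, 0 of them over 0.1, and the fit with the mouse as a block was an alternative. DESeq2 1.42.0, limma 3.58.1 voom, other filters and each library left out were the other alternatives. Some members of the lists, though counted in them, are not reported here by name.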

Additional observations from a re-analysis of the deposited data

Results flagged for a closer look

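Of 239 groups of named gene and cell type tested, 32 had 1 library far from the others of its group, by a rule that chance meets in about 1 group in 20. Values are normalized CPM, each beside the range of the other libraries. In 19 of the groups it was the microglia library of mouse 1. The microglia library of mouse 1 was the highest for Aif1 (336 against 177 to 207), Cd86 (422 against 254 to 316), Clec2d (182 against 61.3 to 102), Ctsh (366 against 205 to 247) and Cttn (3.21 against 0 to 0.971). It was also the highest for Fcgr3 (386 against 221 to 246), Fermt3 (140 against 112 to 119), Gmfb (168 against 93 to 121), Gulp1 (0.675 against 0 to 0.108) and Ier3 (143 against 75.6 to 91.8). It was also the highest for Il34 (1.86 against 0 to 0.328), Ptprc (570 against 350 to 394), Siglech (585 against 393 to 463), Tmem119 (880 against 428 to 518) and Tyro3 (4.56 against 0.394 to 1.9). The same library was the lowest for Cyth3 (33.6 against 48 to 53.4), Myo1e (61.6 against 96.3 to 106), Runx1 (207 against 339 to 387) and Sall1 (85.7 against 191 to 229). That of mouse 3 was the highest for Dock2 (333 against 227 to 261), Dync2li1 (2.83 against 0 to 0.41), Ift57 (6.93 against 2.82 to 4.32), Syk (271 against 190 to 216) and Vav2 (159 against 104 to 116). Mouse 6 gave the microglia library that was the highest for Flt3 (4.79 against 1.37 to 2.53), P2ry1 (0.459 against 0 to 0.164) and P2ry6 (275 against 193 to 219). Mouse 2 gave the highest for Cd59a (0.527 against 0 to 0.108). Its library was the lowest for Laptm4b (11.3 against 12.7 to 13.5). Among the astrocyte libraries, that of mouse 3 was the highest for Cx3cr1 (14 against 4.19 to 7.85). Among the OPC libraries, that of mouse 3 was the highest for Aif1 (16.1 against 4.39 to 8.5) and Tmem119 (38.8 against 9.49 to 19.6). The microglia library of mouse 1 also had the fewest counts, and its part in these values was not tested.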

How the results depend on the processing

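Across 34 alternatives, none of the 211 named genes changed direction while called, and 7098 of 7165 values kept their direction and their side of the threshold. Calls were lost for Cd46 in 11 alternatives, Cd55 in 10, Axl in 7, Jun and Gmfb in 2 each and Il34 in 1, and Inppl1 was called in 6, Flt3 in 5, Tlr3 in 2 and C4b and Tead3 in 1 each. The log2 fold changes of 3 genes near 0, called in no alternative, changed sign. With each library left out these were -0.36 to 0.49 for Serping1, -0.09 to 0.09 for Nf2 and -0.04 to 0.28 for Lats2. Serping1 had -0.02 and Nf2 0.07 with equal weight per library, and -0.27 and 0.05 in heterozygous mice alone. Serping1 had -0.22 with no sex term and -0.07 without the macroglial libraries of mouse 3. The fold change itself, not its log2, moved by over 1.5-fold in at least 1 alternative for 70 of the 201 named genes called, for 44 of them, all to a larger difference, without the macroglial libraries of mouse 3, for 32 with the replicate block, likewise, and for 38 with limma voom. Leaving out 1 library did so for 24 genes, whose values follow as log2 fold changes. Without that of mouse 3 from astrocytes C5ar1 had 6.13, Fermt3 5.86, Nlrp3 6.98, Tlr2 6.85 and Tnf 7.58, from oligodendrocytes Adora3 6.50, C3 5.21, Clec2d 7.17, Fcgr1 6.14 and Tlr1 6.98, and from OPCs Timd4 5.76. Without astrocytes of mouse 1 Cd55 had 3.56 and Msr1 6.79, and of mouse 5 Adora3 5.83. Without oligodendrocytes of mouse 1 P2ry1 had -3.36, and of mouse 6 Yap1 -4.54. Without microglia of mouse 1 Cttn had -5.19, Gulp1 -6.20 and Il34 -3.88, of mouse 2 Cd59a -4.64, of mouse 3 Dync2li1 -4.35 and Yap1 -5.89, of mouse 4 Entpd2 -6.22, of mouse 5 Tgfb2 -6.03, and of mouse 6 Hepacam -6.68, P2ry1 -5.46 and Ugt8a -7.18. Of 254 counts of genes, 249 stayed within 1.5 times the value reported. The number of genes strongly set apart higher was 310 with the mouse as a replicate block and 325 with the macroglial libraries of mouse 3 left out, the latter chosen after seeing the data. The number strongly set apart lower was 342 in heterozygous mice alone and 122 with limma voom, and 1650 genes were set apart higher when each difference had to reach a log2 fold change of 2, which follows from the limit itself. For the others the cause was not tested. The replicate block moved no other count by over 1.5 times, and changed the call of 1 named gene, Cd46. With each library left out in turn, 6006 to 6832 genes were higher and 6202 to 6781 lower than the mean, 2623 to 2902 were set apart higher and 3097 to 3368 lower, and 142 to 228 were strongly set apart higher and 172 to 270 lower. In the Rag2-/- libraries the ranges were 2629 to 2886 and 3000 to 3394. The number of oligodendrocyte libraries, 4 with mice 2 and 4 missing, limits the contrasts against them, and depth limits genes with few counts in 1 of the groups.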

Other observations

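Markers of vessels and of mast cells and platelets belong to no comparison above. Of 9 endothelial genes, 2 were higher in microglia, against 33.3% of all genes, and 7 were not called, with sums of 31.9 to 55.7 CPM in microglia and 12.2 to 74.6 across the macroglial libraries. Of 9 tested genes of mural cells and fibroblasts, 2 were lower, against 33.6% of all genes, and 7 not called, and the sums were 20.8 to 46.7 CPM in microglia, 123 to 160 in astrocytes, 81.9 to 228 in OPCs and 13.2 to 110 in oligodendrocytes. Mast cell and platelet genes summed to 12.8 to 27.4 CPM in microglia and to at most 2.92 elsewhere. Only 2 of the 6 passed the filter on counts, so their calls are not counted.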
